A study of Mus musculus with 10 samples.

Results

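The circadian clock genes Per1, Per2, Per3, Cry1, Cry2, Nr1d1, Nr1d2, Dbp, Tef and Arntl were followed in RNA sequencing of whole mouse lung. The members were the 10 genes of these names among the 54532 genes of the count table, and all 10 had enough counts to be tested. Total RNA of lung tissue from wild-type mice was sequenced in 10 libraries of 3 groups. LPS+TSLP (4 libraries) came from mice given recombinant TSLP, an epithelial cytokine, and then LPS. LPS (3 libraries) came from mice given lipopolysaccharide, the endotoxin of Gram-negative bacteria, which immune and epithelial cells sense through TLR4. Vehicle (3 libraries) was the control. The labels used here give no strain, age, sex, dose, interval after LPS, or hour of day at which lungs were taken, and do not say that each library is a separate mouse. The p-values below therefore measure only the spread between these libraries.

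The circadian clock is a feedback loop of transcription that runs in nearly every cell, including those of the lung. ARNTL (also called BMAL1) pairs with CLOCK or NPAS2 and switches on the Per and Cry genes, Nr1d1, Nr1d2 and PAR bZIP genes such as Dbp through E-box sequences. PER and CRY proteins then repress that pair, the NR1D (REV-ERB) receptors repress Arntl in competition with ROR activators, and DBP and TEF act at D-box sequences. Over a day Arntl is therefore high when Dbp and Nr1d1 are low, and the levels of these genes in any sample depend strongly on the hour of sampling. The hour was not available for any library, so its part in every difference below was not tested.

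Total counts per library ran from 16175172 to 18374461. Values are CPM unless said otherwise, the usual unit of counts relative to the library total, here after TMM scaling of that total. LPS+TSLP replicate 1 had 13.1% mitochondrial counts, against 1.11% to 6.5% in the other 9 libraries, and lay apart on the second principal component (−101, against −39.1 to 34.3). Levels of Dbp, Nr1d1, Nr1d2 and Arntl in LPS+TSLP replicate 1 and Vehicle replicate 3 were unlike those in the rest of their own groups. Results are given with and without them. Lung markers were present throughout: Scgb1a1, the secretory protein of club cells, had 8565 to 26340 CPM and Sftpc, the surfactant protein of alveolar type 2 cells, had 1282 to 15170 CPM. In bulk tissue, fewer cells of a type and less RNA per cell cannot be told apart.

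The promoters of Dbp, Nr1d1 and Arntl, whose levels split the libraries, and of Per3 and Cry1, whose windows held a searched motif, are shown first. Windows run from 250 bases before to 50 bases after the annotated start, from RefSeq on GRCm38.p6, and 9 of the 10 members had at least 1 window (12 windows). Capitals mark exact matches, sought on both strands, to the E-box CACGTG, the D-box TTATGTAA, the ROR and NR1D element TAGGTCA and the cAMP response element TGACGTCA. These occurred in 7.15%, 0.938%, 2.61% and 1.79% of all 32851 windows in that order.
Dbp, chr7:45704997-45705296, plus strand: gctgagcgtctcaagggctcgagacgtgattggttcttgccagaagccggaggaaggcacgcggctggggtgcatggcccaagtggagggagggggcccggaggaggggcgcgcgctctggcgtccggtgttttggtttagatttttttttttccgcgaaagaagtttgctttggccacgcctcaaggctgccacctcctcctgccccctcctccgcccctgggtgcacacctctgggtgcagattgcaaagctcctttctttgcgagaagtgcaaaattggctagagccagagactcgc
Nr1d1, chr11:98775328-98775627, minus strand: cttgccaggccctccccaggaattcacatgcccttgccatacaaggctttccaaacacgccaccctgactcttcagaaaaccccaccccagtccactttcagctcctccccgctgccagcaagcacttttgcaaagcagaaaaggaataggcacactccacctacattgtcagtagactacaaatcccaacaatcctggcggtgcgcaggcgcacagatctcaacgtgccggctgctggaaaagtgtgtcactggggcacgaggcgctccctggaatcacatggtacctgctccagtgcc
Per3, chr4:151044616-151044915, minus strand: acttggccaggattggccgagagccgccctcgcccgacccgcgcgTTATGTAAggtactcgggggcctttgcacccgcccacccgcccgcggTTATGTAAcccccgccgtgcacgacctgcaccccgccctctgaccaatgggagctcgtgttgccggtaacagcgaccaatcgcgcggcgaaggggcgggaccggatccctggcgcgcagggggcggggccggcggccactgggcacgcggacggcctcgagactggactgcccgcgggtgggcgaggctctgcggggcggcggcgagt
Cry1, chr10:85185005-85185304, minus strand: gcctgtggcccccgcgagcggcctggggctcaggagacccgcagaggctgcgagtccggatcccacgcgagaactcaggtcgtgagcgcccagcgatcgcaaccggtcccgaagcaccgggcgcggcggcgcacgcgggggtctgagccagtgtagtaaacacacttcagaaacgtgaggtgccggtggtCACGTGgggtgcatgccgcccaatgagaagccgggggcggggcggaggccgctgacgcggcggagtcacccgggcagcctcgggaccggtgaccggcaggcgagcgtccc
Arntl, chr7:113207261-113207560, plus strand: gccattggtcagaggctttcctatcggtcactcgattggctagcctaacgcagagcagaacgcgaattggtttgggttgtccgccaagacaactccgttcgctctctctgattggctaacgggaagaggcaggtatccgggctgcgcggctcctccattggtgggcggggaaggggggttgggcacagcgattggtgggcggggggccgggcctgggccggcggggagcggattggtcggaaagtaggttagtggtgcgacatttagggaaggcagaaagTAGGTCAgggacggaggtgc
The Per3 window held the D-box 2 times, 205 and 158 bases before the start. The Cry1 window held the E-box 60 bases before the start, and Tef windows also held an E-box. So did the Per1 window at chr11:69098699-69098998, while the other Per1 window (chr11:69099902-69100201) held no searched motif. In the Arntl window shown, the ROR and NR1D element lay 30 bases after the start of that window's transcript. The other Arntl window (chr7:113207215-113207514), not shown, held no searched motif. The Dbp and Nr1d1 windows held none of these letters, and no member window held the cAMP response element. A match is a description of these bases, not a measured site of binding.

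Dbp, a D-box activator and a direct output of the clock, had the widest range over the libraries of the 10 members. It had 58.3, 2.53, 2.78 and 1.77 CPM in LPS+TSLP replicates 1 to 4, against 2.99, 2.20 and 3.61 CPM in LPS replicates 1 to 3 and 168, 97.4 and 1.91 CPM in Vehicle replicates 1 to 3. Vehicle replicate 3 was thus below every LPS library, and LPS+TSLP replicate 1 was above every LPS library, so both groups overlapped with their comparators. The highest Vehicle library exceeded the lowest 88.1-fold, and only 0.0467% of the genes tested had as wide a range among the 3 Vehicle libraries. Among LPS+TSLP libraries the range of Dbp was 33.0-fold (0.42% of genes as wide), and among LPS libraries it was 1.64-fold (50.7% as wide).

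Nr1d1 encodes REV-ERB alpha, the heme-binding repressor of Arntl. It had 125, 6.79, 5.78 and 8.54 CPM in LPS+TSLP libraries, against 6.70, 3.90 and 18.2 CPM in LPS libraries and 256, 215 and 12.1 CPM in Vehicle libraries. The same 2 libraries crossed the others of their groups, and Vehicle replicate 3 lay within the LPS range. Nr1d2, its close relative REV-ERB beta, had 98.6, 16.1, 15.5 and 21.8 CPM in LPS+TSLP, 34.7, 14.1 and 45.5 CPM in LPS and 97.3, 78.1 and 19.5 CPM in Vehicle libraries. For Nr1d2 the highest of all 10 libraries was LPS+TSLP replicate 1.

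Arntl, the activator that the NR1D receptors repress, ran the other way. It had 5.12, 26.1, 21.1 and 28.7 CPM in LPS+TSLP, 16.6, 18.9 and 16.6 CPM in LPS and 6.01, 11.6 and 28.9 CPM in Vehicle libraries. LPS+TSLP replicate 1 was the lowest of all 10 libraries and Vehicle replicate 3 the highest, while the 3 LPS libraries differed by only 1.14-fold.

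**Figure D1:**
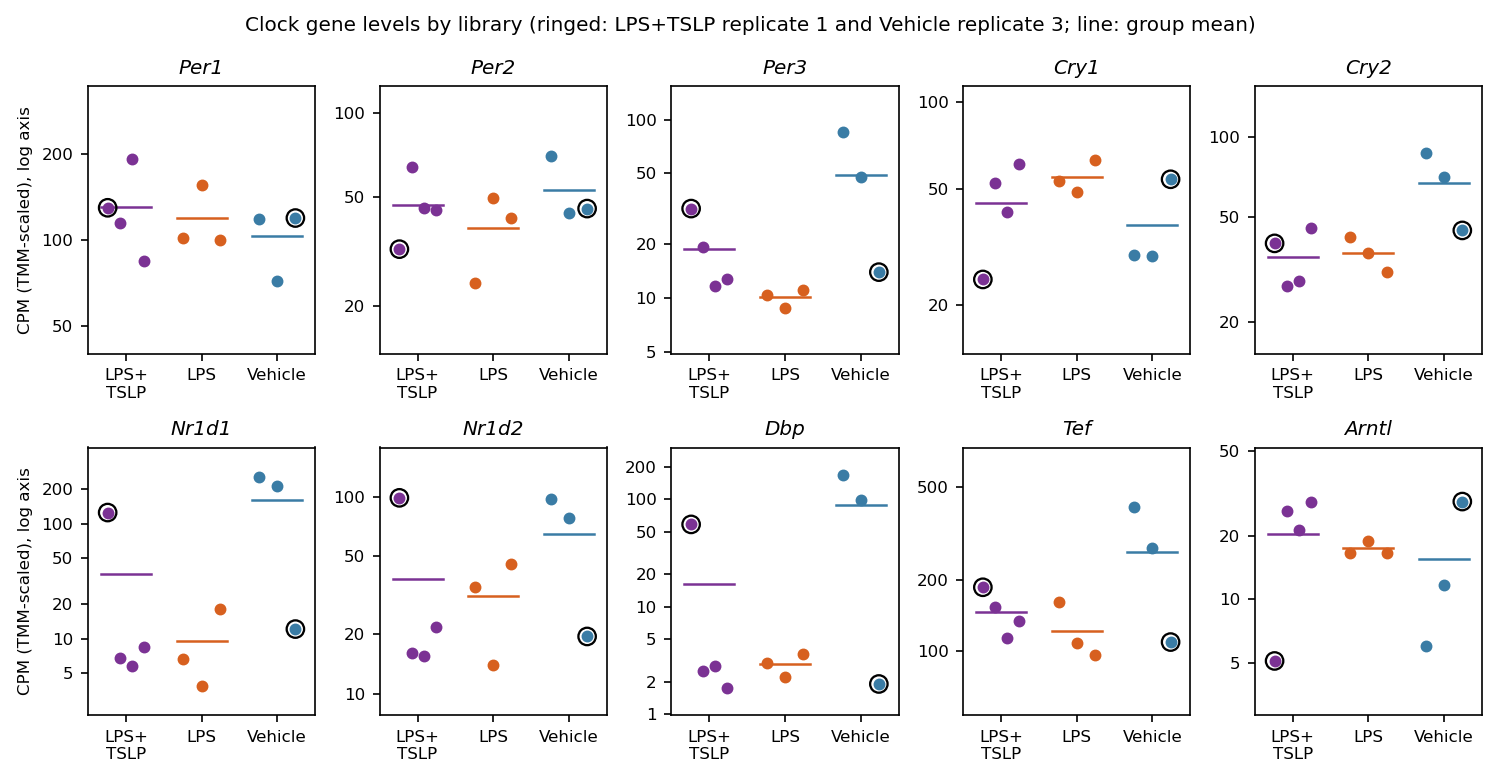
CPM (TMM-scaled, log axis) of the 10 clock genes in each library by group, each dot a library and each line a group mean, with LPS+TSLP replicate 1 and Vehicle replicate 3 ringed. In Dbp and Nr1d1 the ringed dots lie among the dots of another group, with Dbp at 58.3 CPM in the ringed LPS+TSLP library and 1.91 CPM in the ringed Vehicle library. In Arntl they are the lowest and the highest of all 10 libraries, and in Nr1d2 the ringed LPS+TSLP dot is the highest of all.

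The difference of Arntl and Dbp within a library, which shared scaling cannot alter, summarised this opposition. On the log2 CPM scale Arntl minus Dbp was −3.48, 3.31, 2.88 and 3.93 in LPS+TSLP, 2.43, 3.04 and 2.17 in LPS and −4.78, −3.05 and 3.84 in Vehicle libraries. LPS+TSLP replicate 1 and Vehicle replicates 1 and 2 were therefore below −3, the other 7 libraries were above 2, and none lay between. Arntl minus Nr1d1 was −4.58, 1.92, 1.85 and 1.73 in LPS+TSLP, 1.30, 2.25 and −0.13 in LPS and −5.39, −4.19 and 1.25 in Vehicle libraries. The 3 lowest libraries were the same, LPS+TSLP replicate 1 and Vehicle replicates 1 and 2, and LPS replicate 3 was the next lowest, near 0.

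**Figure D2:**
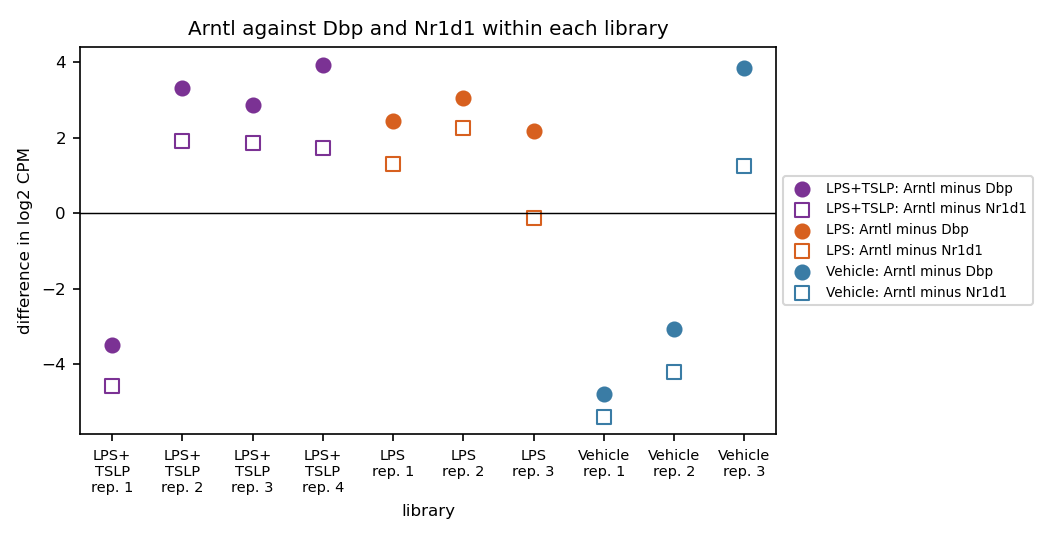
Difference in log2 CPM between Arntl and Dbp (filled circles) and between Arntl and Nr1d1 (open squares) in each of the 10 libraries. LPS+TSLP replicate 1 (−3.48 and −4.58) lies with Vehicle replicates 1 and 2, and Vehicle replicate 3 (3.84 and 1.25) lies with the LPS and other LPS+TSLP libraries.

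LPS against Vehicle asks how the endotoxin response changes lung transcription. Per3, Cry2 and Dbp fell, no clock gene rose, and the other 7 did not pass the test (edgeR quasi-likelihood, Benjamini-Hochberg adjusted p under 0.05 over 17139 genes). Of all genes, 14.2% were called higher and 10.7% lower in this comparison. The median log2 fold change of the 10 members was −0.97, beside 0.01 over all genes tested. Only Per3 and Cry2 had groups without overlap, 2 of 10 members, whereas 49.8% of all genes had none.

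Among the repressors, Per3, the period paralog whose loss has only a mild effect on rhythm in mice, had 10.4, 8.81 and 11.1 CPM in LPS against 85.7, 47.5 and 14.0 CPM in Vehicle libraries. Every LPS library was below every Vehicle library, though Vehicle replicate 3 exceeded the highest LPS library only slightly (log2 fold change −2.28, SE 0.56, adjusted p = 0.0153). The Per3 call was lost without LPS replicate 1 (adjusted p = 0.0577), LPS replicate 2 (0.0504) or Vehicle replicate 1 (0.0769), and with no filter on low counts (0.0584). Cry2, a cryptochrome that represses the ARNTL and CLOCK pair, had 42.0, 36.3 and 30.7 CPM in LPS against 87.1, 70.7 and 44.3 CPM in Vehicle libraries, again without overlap (−0.89, SE 0.28, adjusted p = 0.039). The Cry2 call was lost on leaving out LPS replicate 1, 2 or 3 or Vehicle replicate 1 or 2 (adjusted p = 0.0612, 0.0911, 0.108, 0.168 and 0.108 in that order). It was also lost with the GC trend removed (−0.65, adjusted p = 0.104), with the length trend removed (−0.76, adjusted p = 0.08) and without LPS 1 and LPS+TSLP 1 together (adjusted p = 0.0518).

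Dbp averaged 2.93 ± 0.71 CPM in LPS and 89.2 ± 83.5 CPM in Vehicle libraries (SD, n = 3 each), and its call rested on groups that overlapped (log2 fold change −4.92, SE 1.63, adjusted p = 0.047). It was lost without LPS replicate 1, 2 or 3 or Vehicle replicate 1 or 2 (adjusted p = 0.14, 0.121, 0.12, 0.161 and 0.108 in that order), and held without Vehicle replicate 3 (0.025). Under limma-voom the Dbp log2 fold change was −3.45 with adjusted p = 0.227, and the call was lost too with DESeq2 size factors (0.051), upper quartile factors (0.0527), no filter on low counts (0.198) and the GC (0.0717) or length (0.0637) trend removed. Exons of Dbp share 539 bases with Sphk2 on the other strand, 18.0% of its exon length, and without a stated strand setting reads of the overlap cannot be told apart. Sphk2 itself had 563 to 875 counts in the 10 libraries, and the part of this overlap in the Dbp values was not tested.

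For Nr1d1 the LPS against Vehicle difference was −4.07 on the log2 scale (SE 1.40, adjusted p = 0.0544), and for Nr1d2 it was −1.05 (SE 0.77, adjusted p = 0.335). Nr1d1 shares 263 exonic bases with Thra on the other strand, 8.5% of its exon length, and reads of this overlap cannot be told apart either. Thra had 2606, 2375 and 1885 counts in Vehicle, 940, 1367 and 899 counts in LPS and 1439 to 1697 counts in LPS+TSLP libraries. Thra was thus higher in every Vehicle library than in every LPS library, and the part of this overlap in the Nr1d1 values was not tested. Tef, the PAR bZIP partner of Dbp at D-boxes, had 162, 108 and 96.3 CPM in LPS against 409, 275 and 109 CPM in Vehicle libraries (−1.11, SE 0.40, adjusted p = 0.0633). Vehicle replicate 3 lay within the LPS range of Tef. Without Vehicle replicate 3, Nr1d1 (−4.62, adjusted p = 0.0367) and Tef (−1.47, adjusted p = 0.0114) also passed, and without LPS+TSLP replicate 1 in the shared fit Nr1d1 passed (adjusted p = 0.015). These fits called 21.5% and 31.9% of all genes in that order. Both libraries stood out by their clock gene values, so these added calls only describe the remaining libraries.

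The remaining members were Per1, Per2, Cry1 and Arntl. Per1, a period gene that glucocorticoids and cAMP also induce, had 101, 156 and 99.7 CPM in LPS against 118, 71.8 and 119 CPM in Vehicle libraries (log2 fold change 0.21, 95% interval −0.49 to 0.90). Per2, a period gene needed for stable rhythm in mice, had 24.3, 49.4 and 41.8 CPM in LPS against 69.8, 43.7 and 45.2 CPM in Vehicle libraries (−0.46, −1.14 to 0.23). Neither period gene separated the libraries, and Vehicle replicate 3 was not extreme in either. Cry1, the cryptochrome whose daily peak is delayed behind the Per genes, had 53.4, 49.1 and 63.0 CPM in LPS against 29.7, 29.5 and 54.1 CPM in Vehicle libraries (0.55, −0.18 to 1.27). Its 2 low libraries were Vehicle replicates 1 and 2, so Cry1 ran with Arntl. Arntl itself gave 0.16 (−1.14 to 1.47), with a mean of 17.4 ± 1.33 CPM in LPS and 15.5 ± 11.9 CPM in Vehicle libraries (SD, n = 3 each).

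**Figure D3:**
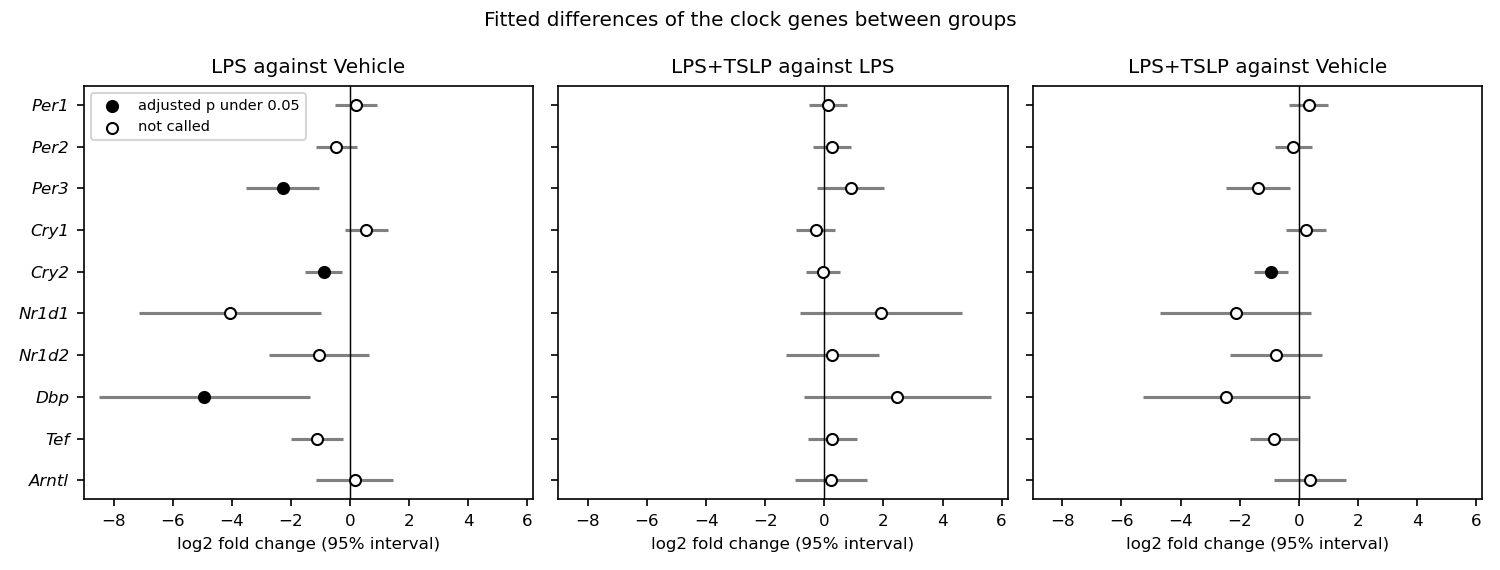
Log2 fold change (dot) and 95% interval (line) of the 10 clock genes in the 3 comparisons (1 panel each), from the fit of all 10 libraries, with filled dots for an adjusted p under 0.05. Dbp and Nr1d1 have the widest intervals in every panel, and only Per3, Cry2 and Dbp in LPS against Vehicle and Cry2 in LPS+TSLP against Vehicle are filled.

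LPS+TSLP against LPS asks what TSLP given before LPS adds. None of the 10 clock genes passed in either direction by edgeR, and 0 genes of 17139 did (0.0% called). At an unadjusted p under 0.05 there were 1388 genes, none of them among the 10 members. DESeq2 called 35 genes (22 higher, 13 lower), none of them a member, and limma-voom called 0. The median log2 fold change was 0.27 for the members, beside 0.02 over all genes.

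Dbp and Nr1d1 had the largest fitted values of the members here, and both rested on LPS+TSLP replicate 1. The log2 fold change of Dbp was 2.47 (95% interval −0.70 to 5.64, adjusted p = 0.702) with all libraries and −0.32 without LPS+TSLP replicate 1. That of Nr1d1 was 1.92 (−0.81 to 4.66, adjusted p = 0.732), and −0.47 without that library. Nr1d2 likewise gave 0.27 (−1.30 to 1.85), and −0.84 without it. The other 3 LPS+TSLP libraries had 1.77 to 2.78 CPM of Dbp, inside or just below the LPS range of 2.20 to 3.61 CPM.

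Per3 was the only member without overlap between these groups, 1 of 10, beside 7.42% of all genes. It had 31.7, 19.3, 11.7 and 12.8 CPM in LPS+TSLP, against 8.81 to 11.1 CPM in LPS libraries (0.90, −0.23 to 2.03, adjusted p = 0.694). The highest was again LPS+TSLP replicate 1, and without it the log2 fold change was 0.51. Cry1 had 24.4, 52.4, 41.7 and 60.9 CPM in LPS+TSLP libraries and a log2 fold change of −0.30 (−0.97 to 0.38), its lowest library being LPS+TSLP replicate 1. Cry2 had 39.6, 27.2, 28.4 and 45.3 CPM in LPS+TSLP libraries (−0.05, −0.62 to 0.52), Tef had 187, 155, 113 and 135 CPM (0.27, −0.55 to 1.09) and Arntl gave 0.22 (−1.0 to 1.44). Per1 had 130, 115, 193 and 84.2 CPM (0.13, −0.52 to 0.78) and Per2 had 32.2, 63.7, 45.5 and 44.7 CPM (0.27, −0.37 to 0.92). The intervals of Dbp, Nr1d1, Nr1d2, Per3, Tef and Arntl hold differences of more than 1 log2 unit in at least 1 direction.

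LPS+TSLP against Vehicle uses the same Vehicle libraries as LPS against Vehicle and the same LPS+TSLP libraries as the comparison above, so its values are not independent of theirs. Cry2 fell and the other 9 clock genes did not pass, where 8.82% of all genes were called higher and 5.35% lower. Cry2 averaged 35.1 ± 8.79 CPM in LPS+TSLP (SD, n = 4) and 67.4 ± 21.6 CPM in Vehicle libraries (SD, n = 3). The fitted difference was −0.94 on the log2 scale (SE 0.26, adjusted p = 0.035), although the highest LPS+TSLP library (45.3 CPM) just exceeded Vehicle replicate 3 (44.3 CPM). The Cry2 call was lost without LPS+TSLP replicate 2 (adjusted p = 0.0957) or 3 (0.102), LPS replicate 2 (0.0522), or Vehicle replicate 1 (0.166) or 2 (0.114), and with the groups compared alone (0.0522) or the GC trend removed (0.077). No member had groups without overlap, 0 of 10, whereas 31.7% of all genes had none.

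Dbp gave −2.45 (SE 1.29, adjusted p = 0.21), Nr1d1 −2.14 (SE 1.16, adjusted p = 0.223), Nr1d2 −0.77 (SE 0.71, adjusted p = 0.475), Per3 −1.38 (SE 0.50, adjusted p = 0.0826) and Tef −0.84 (SE 0.37, adjusted p = 0.139). Leaving out LPS+TSLP replicate 1 moved Dbp to −5.23 (adjusted p = 0.0196), Nr1d1 to −4.53 (0.0178), Nr1d2 to −1.88 (0.0412) and Per3 to −1.75 (0.0356). With Cry2, 5 of the 10 members then passed, all lower, with 19.3% of all genes called. As that library stood out by its clock gene values, the count is a description of the remaining libraries. Without Vehicle replicate 3 alone, Cry2, Per3 (−1.81, adjusted p = 0.0167) and Tef (−1.21, adjusted p = 0.0263) passed, with 13.7% of all genes called. Vehicle replicate 3 stood out likewise, so these calls too are a description. The median log2 fold change over the members with all libraries was −0.81, beside 0.03 over all genes, and Per1 (0.34), Per2 (−0.18), Cry1 (0.25) and Arntl (0.38) had the smallest values.

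Leaving out Vehicle replicate 3 and LPS+TSLP replicate 1 together shows how far those 2 libraries carried these results. They were picked by their clock gene values, so the counts that follow describe the remaining 8 libraries and support nothing. In LPS against Vehicle, 8 of 10 members then passed, with 28.2% of all genes called: Dbp (−5.50), Nr1d1 (−4.62), Per3 (−2.72), Tef (−1.49), Nr1d2 (−1.48) and Cry2 (−1.12) lower and Arntl (0.97) and Cry1 (0.90) higher. The count in LPS+TSLP against Vehicle was also 8, again 6 lower and 2 higher, with 17.6% of all genes called, Dbp at −5.81 and Arntl at 1.51. For LPS+TSLP against LPS it was 0. Per1 and Per2 did not pass in any of the 3.

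Other genes of the clock did not all follow the same split. Of 11 other clock transcription factors 10 were tested. In LPS against Vehicle, 2 rose (Rora and Clock), 1 fell (Hlf) and 7 did not pass, with a median log2 fold change of 0.44. Of all genes, 14.2% were called higher and 10.7% lower there. Rora and Clock also rose in LPS+TSLP against Vehicle, where the other 8 did not pass and 8.82% of all genes were called higher. Between LPS+TSLP and LPS 0 of the 10 passed.

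Rora encodes ROR alpha, which activates Arntl at the element that the NR1D receptors occupy. It had 30.8, 42.9, 34.8 and 63.1 CPM in LPS+TSLP and 35.2, 36.1 and 38.1 CPM in LPS, against 11.9, 9.98 and 13.3 CPM in Vehicle libraries. All 7 LPS-treated libraries were above all 3 Vehicle libraries, and Vehicle replicate 3 and LPS+TSLP replicate 1 stayed with their labels. Groups without overlap were common, at 49.8% of all genes in LPS against Vehicle and 31.7% in LPS+TSLP against Vehicle. Arntl2, of the same list, also had groups without overlap in both comparisons but did not pass in either. It had 0.51 to 0.93 CPM in Vehicle, 1.28 to 2.09 CPM in LPS and 1.22 to 2.19 CPM in LPS+TSLP libraries. The log2 fold change of Rora was 1.64 in LPS against Vehicle (SE 0.26, adjusted p = 0.00316). In LPS+TSLP against Vehicle it was 1.87 (SE 0.25, adjusted p = 0.00242). Leaving out any single library kept both calls of Rora.

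Clock, the partner of ARNTL, had 39.7, 76.1, 54.2 and 112 CPM in LPS+TSLP and 51.7, 53.4 and 81.1 CPM in LPS, against 18.9, 21.0 and 40.7 CPM in Vehicle libraries. It rose in LPS against Vehicle (1.21, SE 0.40, adjusted p = 0.0467), a call lost with the GC trend removed (0.27, adjusted p = 0.533), with no filter on low counts (0.0631) and without any of 7 libraries, LPS+TSLP 2 or 3, LPS 1, 2 or 3 or Vehicle 1 or 2 (adjusted p from 0.0561 to 0.15). Against Vehicle, Clock in LPS+TSLP gave 1.39 (SE 0.38, adjusted p = 0.0351), again lost with the GC trend removed (0.51, adjusted p = 0.23), with the groups compared alone (0.0529) and without LPS+TSLP 2 or 3, LPS 2 or Vehicle 1 or 2 (adjusted p from 0.0504 to 0.14). Npas2, which can stand in for CLOCK, followed Arntl only in part. Vehicle replicate 3 was the highest of all libraries (20.7 CPM) and LPS+TSLP replicate 1 (5.89 CPM) exceeded only Vehicle replicate 1 (2.92 CPM). LPS replicates 1 to 3 had 9.81, 8.02 and 8.28 CPM of Npas2. Vehicle replicate 2 (8.59 CPM) exceeded LPS replicates 2 and 3, whereas in Arntl it lay below every LPS library.

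Hlf, the third PAR bZIP factor beside DBP and TEF, had 32.4, 12.0, 10.4 and 15.5 CPM in LPS+TSLP and 12.6, 8.64 and 7.22 CPM in LPS, against 46.1, 25.4 and 14.3 CPM in Vehicle libraries. It fell in LPS against Vehicle (−1.60, SE 0.49, adjusted p = 0.0369) and gave −0.70 (adjusted p = 0.294) in LPS+TSLP against Vehicle. The call was lost without LPS+TSLP 4, any LPS library or Vehicle 1 or 2 (adjusted p from 0.0503 to 0.188), under limma-voom (0.0525), with no filter on low counts (0.0684) and with the length trend removed (0.0726). Nfil3, which represses the D-box sites that DBP activates, had 19.5, 26.8, 46.1 and 43.8 CPM in LPS+TSLP and 49.9, 49.1 and 48.1 CPM in LPS, against 6.91, 16.9 and 46.3 CPM in Vehicle libraries (LPS against Vehicle 1.07, SE 0.54, adjusted p = 0.164). Thus in Nfil3 Vehicle replicate 3 lay close to the LPS libraries and LPS+TSLP replicate 1 close to Vehicle replicate 2. LPS+TSLP replicate 1 was not set apart from its group, as LPS+TSLP replicate 2 (26.8 CPM) lay nearer to it than to replicates 3 and 4.

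**Figure D4:**
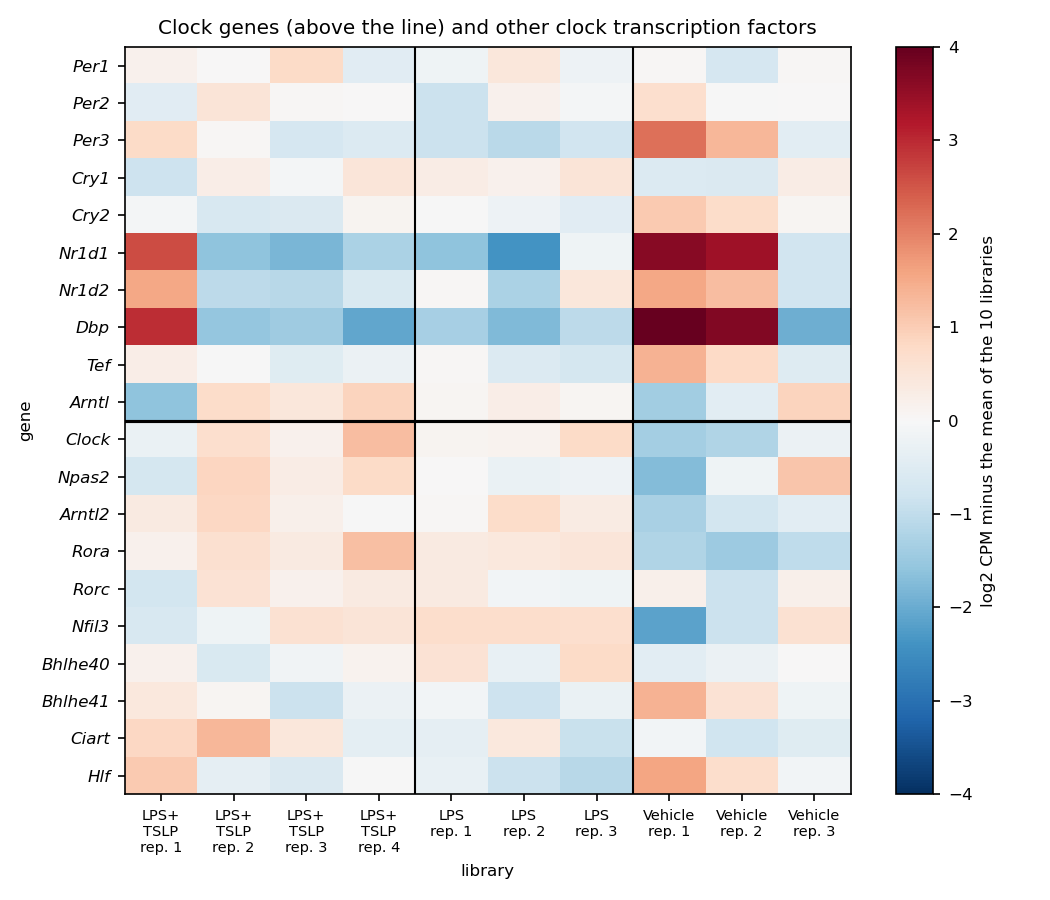
Log2 CPM of each gene minus its mean over the 10 libraries, for the 10 clock genes (above the black line) and the 10 tested other clock transcription factors (below it), with libraries in columns by group. LPS+TSLP replicate 1 has the colours of Vehicle replicates 1 and 2 in Dbp, Nr1d1 and Nr1d2 and Vehicle replicate 3 those of LPS libraries, while Rora is low in all 3 Vehicle libraries.

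Among 7 kinases and F-box proteins that set the stability of PER and CRY proteins and are described here, Btrc fell in LPS against Vehicle, and the other 6 did not pass in any of the 3 comparisons. Btrc, a ligase subunit for PER proteins, fell by 0.63 on the log2 scale (SE 0.19, adjusted p = 0.0324), and the call was lost without LPS 1 or 3 or Vehicle 1 or 2 (adjusted p from 0.0645 to 0.132), without LPS 1 and LPS+TSLP 1 together (0.0688), with no filter on low counts (0.0918) and with the length trend removed (0.117). The median log2 fold change of the 7 was −0.42 in LPS against Vehicle, where 10.7% of all genes were called lower.

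**Figure D5:**
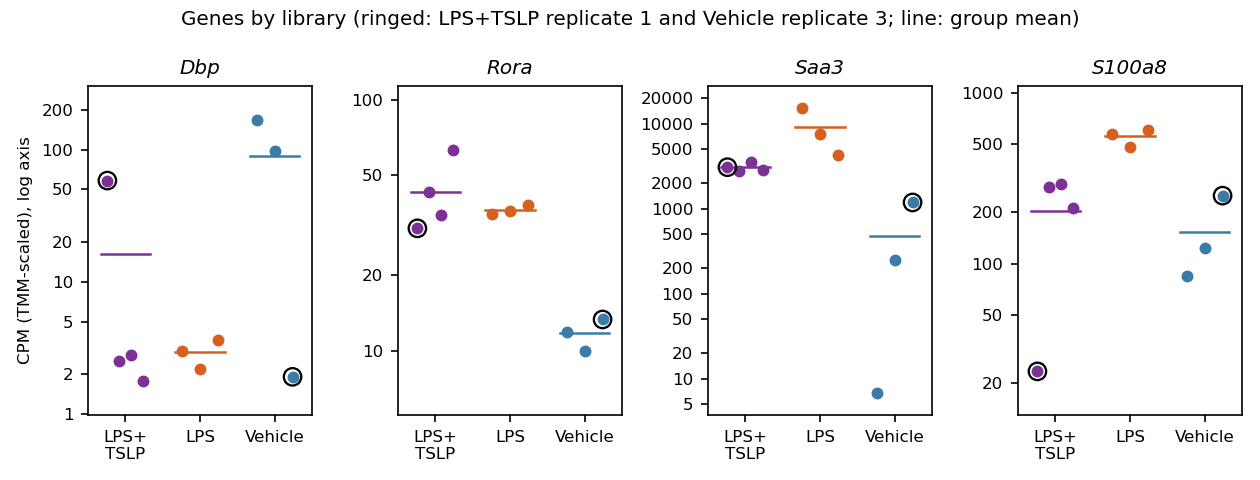
CPM (TMM-scaled, log axis) of Dbp, Rora, the acute-phase gene Saa3 and the neutrophil gene S100a8 in each library, with LPS+TSLP replicate 1 and Vehicle replicate 3 ringed and lines at group means. In Rora the ringed libraries stay on the side of their labels (30.8 and 13.3 CPM), while in Dbp they change sides (58.3 and 1.91 CPM).

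Of all genes, 14.2% were called higher in LPS against Vehicle and 8.82% in LPS+TSLP against Vehicle. Of 5 genes commonly rhythmic downstream of the clock, 2 rose in LPS against Vehicle. Nampt, the rate-limiting enzyme of NAD salvage, gave 1.8 (SE 0.37, adjusted p = 0.00825), a call lost with the GC trend removed (0.86, adjusted p = 0.135). Tsc22d3, the glucocorticoid-induced leucine zipper, gave 1.16 (SE 0.35, adjusted p = 0.0325), lost without LPS 1 or 2 or any Vehicle library (adjusted p from 0.0584 to 0.14) and without LPS 1 and LPS+TSLP 1 together (0.0611). Usp2, Wee1 and Tspan4 did not pass. Nampt and Tsc22d3 also rose in LPS+TSLP against Vehicle (1.2, adjusted p = 0.0429, and 1.28, adjusted p = 0.0282), where the Nampt call was lost without LPS+TSLP 1 or 3, LPS 2 or 3 or Vehicle 1 or 2 (adjusted p from 0.0521 to 0.179) and the Tsc22d3 call without LPS+TSLP 2 or 3 or any Vehicle library (adjusted p from 0.0509 to 0.139). For LPS+TSLP against Vehicle the Nampt call was also lost with the groups compared alone (0.0613), with the GC trend removed (0.485) and without LPS 1 and LPS+TSLP 1 together (0.069), and that of Tsc22d3 lay at adjusted p = 0.05 without Vehicle 3 and LPS+TSLP 1 together.

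Glucocorticoids also reset the clock of peripheral tissues, and 8 genes they induce were counted beside it. In LPS against Vehicle 3 rose, Fkbp5 (1.84, adjusted p = 0.0102), Cdkn1a (1.67, adjusted p = 0.0255) and Tsc22d3. None fell and 5 did not pass, with a median of 0.91, where 14.2% of all genes were called higher. In Vehicle replicate 3, Fkbp5 (99.5 CPM) and Cdkn1a (248 CPM) lay above Vehicle replicates 1 (29.2 and 53.2 CPM) and 2 (36.8 and 98.4 CPM). Both lay below every LPS library but within the range of LPS+TSLP. Fkbp5 there exceeded LPS+TSLP replicate 3 (97.7 CPM), and Cdkn1a exceeded LPS+TSLP replicates 1 (241.4 CPM) and 2 (223.5 CPM). In Zbtb16, Sgk1, Dusp1, Klf9 and Errfi1 Vehicle replicate 3 exceeded at least 1 LPS library, and in Tsc22d3 it did not. The Cdkn1a call was lost without LPS 1 or 2 or Vehicle 1 or 2 (adjusted p from 0.0662 to 0.0984) and without LPS 1 and LPS+TSLP 1 together (0.0644).

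Markers of inflammation and of other cells differed in whether they went with the clock gene split, and their part in it was not tested. The summed level of 7 LPS response genes, most of it Saa3 in the libraries given LPS, was 3505 to 5069 CPM in LPS+TSLP (3648 CPM in LPS+TSLP replicate 1), 6445 to 17800 CPM in LPS, and 143.9, 508 and 1679 CPM in Vehicle replicates 1 to 3. By this sum LPS+TSLP replicate 1 stayed with its group, and Vehicle replicate 3 was the highest of its group and below every library given LPS. Single genes overlapped more. Cxcl2, a neutrophil chemokine, had 25.5, 141.9, 499.7 and 199.3 CPM in LPS+TSLP and 332 to 709 CPM in LPS, against 0.28, 4.0 and 39.8 CPM in Vehicle libraries, so Vehicle replicate 3 exceeded LPS+TSLP replicate 1. In Il1b, Il6 and Ccl2 too, Vehicle replicate 3 exceeded at least 1 LPS+TSLP library, and in none of the 7 genes did it exceed an LPS library. Of these genes 6 of 7 rose in LPS against Vehicle (Nfkbia, Tnf, Cxcl2, Il1b, Saa3 and Ccl2), and Nfkbia rose in LPS+TSLP against Vehicle. These comparisons called 14.2% and 8.82% of all genes higher in that order.

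The summed level of 6 neutrophil markers was 119 CPM in LPS+TSLP replicate 1 and 683.8 to 1028 CPM in the other 3 LPS+TSLP libraries, against 1523 to 1937 CPM in LPS and 315.6 to 1017 CPM in Vehicle libraries. None of the 6 passed in any comparison. Of all libraries, LPS+TSLP replicate 1 was thus the lowest in neutrophil markers, and Vehicle replicate 3 was the highest of its group. In Dbp, LPS+TSLP replicate 1 (58.3 CPM) was the highest after Vehicle replicates 1 and 2 (168 and 97.4 CPM). The fibroblast sum did not go with the split, and the endothelial sum went with it only in Vehicle replicate 3. That library had an endothelial sum of 3533 CPM, below Vehicle replicates 1 and 2 (4514 and 4635 CPM). It lay just above the highest library given LPS (3427 CPM). In LPS against Vehicle 10.7% of all genes were called lower. Of 6 endothelial markers 3 fell there, Kdr, Tek and Cdh5 (summed level 2591 to 3427 CPM in LPS+TSLP, 3074 to 3268 CPM in LPS and 3533 to 4635 CPM in Vehicle libraries, the lowest being LPS+TSLP replicate 1). Of 6 fibroblast and smooth muscle markers 3 fell, Myh11, Col1a1 and Col1a2 (1830 to 3152, 1141 to 1857 and 3048 to 4461 CPM, the highest being Vehicle replicate 3), and of 6 epithelial markers none passed (19170 to 31330, 11390 to 31740 and 20710 to 35300 CPM). Markers of muscle, thyroid, fat and thymus, 7 genes that could come with dissected lung, summed to 1.77 to 9.72 CPM in LPS+TSLP, 2.26 to 4.39 CPM in LPS and 4.97 to 33.2 CPM in Vehicle libraries, the highest being Vehicle replicate 2. Of the 4 of these genes tested, Plin1, the lipid droplet protein of fat cells, fell in LPS (−3.77, SE 1.06, adjusted p = 0.026) and in LPS+TSLP (−4.81, SE 1.02, adjusted p = 0.0141) against Vehicle.

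Levels of different members were compared per length, as RPKM, the scaled CPM divided by the merged exon length in kilobases. In Vehicle libraries the order of mean levels was Nr1d1 (52.4 ± 42.5 RPKM), Tef (33.6 ± 19.1), Dbp (29.8 ± 27.9), Per1 (18.3 ± 4.82), Nr1d2 (12.0 ± 7.49), Cry1 (11.3 ± 4.24), Cry2 (10.7 ± 3.41), Per2 (9.04 ± 2.5), Per3 (5.10 ± 3.73) and Arntl (2.06 ± 1.59; SD, n = 3). The mean ± SD ranges of all neighbours in that order overlapped. In LPS libraries it was Per1 (21.1 ± 5.72 RPKM), Cry1 (16.5 ± 2.14), Tef (15.5 ± 4.49), Per2 (6.57 ± 2.19), Nr1d2 (5.81 ± 2.95), Cry2 (5.75 ± 0.90), Nr1d1 (3.12 ± 2.47), Arntl (2.31 ± 0.18), Per3 (1.05 ± 0.12) and Dbp (0.98 ± 0.24; SD, n = 3). There Tef and Per2, and Arntl and Per3, were neighbours whose spreads did not overlap. In LPS+TSLP libraries Per1 (23.1 ± 8.10 RPKM), Tef (18.7 ± 3.98) and Cry1 (13.4 ± 4.71) led, and Nr1d1 (11.9 ± 19.2), Nr1d2 (7.03 ± 7.49) and Dbp (5.46 ± 9.35; SD, n = 4) had spreads wider than their means.

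The profiles nearest to Dbp over the 10 libraries, by the root mean square difference of log2 CPM centred on each gene's mean, were Ces1f (0.95 log2 units), Alox15 (1.12), Cyp1a1 (1.25) and Hpcal4 (1.31). Alox15, a lipoxygenase, had 3.26, 0.29, 0.49 and 0.24 CPM in LPS+TSLP, 0.85, 0.28 and 2.06 CPM in LPS and 8.54, 6.51 and 0.66 CPM in Vehicle libraries. Cyp1a1, the aryl hydrocarbon receptor target, had 14.1, 4.20, 5.02 and 3.97 CPM in LPS+TSLP, 4.57, 2.99 and 0.72 CPM in LPS and 41.4, 56.7 and 2.46 CPM in Vehicle libraries. Each of these 4 genes was highest in Vehicle replicates 1 and 2, next in LPS+TSLP replicate 1, and lower still in Vehicle replicate 3.

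Nearest to Arntl were Itga7 (0.27 log2 units), Vnn1 (0.34), Spaar (0.36) and Gm43085 (0.36). Itga7, a laminin-binding integrin subunit of muscle cells, had 18.9, 86.5, 73.6 and 88.3 CPM in LPS+TSLP, 86.8, 74.3 and 81.4 CPM in LPS and 19.8, 58.3 and 93.6 CPM in Vehicle libraries. It was highest in Vehicle replicate 3 and lowest in LPS+TSLP replicate 1, as Arntl was. These likenesses describe the 10 libraries, which differ in treatment, and are not tests of shared control.

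All members are protein-coding genes of GRCm38 in the GENCODE M21 annotation. Per1 (chr11:69095217-69109960), Per2 (chr1:91415982-91459324), Per3 (chr4:151003652-151044665), Cry1 (chr10:85131700-85185064) and Cry2 (chr2:92403646-92434043) are the repressors, Nr1d1 (chr11:98767932-98775333) and Nr1d2 (chr14:18204054-18239127) the REV-ERB receptors. Dbp (chr7:45705088-45710203) and Tef (chr15:81802421-81826863) are the D-box factors, and Arntl (chr7:113207465-113314126) is the activator. Antisense neighbours of Cry2, Tef and Arntl had at most 14 counts in any library.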

How the data were processed

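The deposited table held raw read counts per gene, made by the authors on GRCm38/mm10. The submitters' processing notes name CASAVA, HISAT2 and HTSeq 0.6.0. The annotation release and the strand setting are not given in the sources used here. All 10 columns were used, no library was a copy of another (chi-square comparison of each pair), and 31040 genes had a count. GENCODE M21, which held 54495 of the 54532 identifiers, gave positions, exon length and GC content.

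The clock genes and the other gene lists were chosen with earlier results of these data known. Counts were filtered with filterByExpr (17139 genes kept), scaled by TMM and tested with edgeR 4.0.16 quasi-likelihood (robust, limma 3.58.1, R 4.3.3) in 1 fit of 3 groups (residual degrees of freedom: 7). Calls, and the words rose and fell, stand for a Benjamini-Hochberg adjusted p under 0.05 over all genes tested, two-sided. Standard errors are the log2 fold change divided by the square root of F, and log2 CPM used a prior count of 2. The fits were tested on simulated data. The text names all members, up to 4 called genes of each other list, and the 4 nearest profiles to Dbp and to Arntl, while further genes of those lists named with values were chosen after their values were seen. Some genes of the lists are not reported here, and list counts and sums leave them out. Deviations from group means correlated at −0.344 to 0.405 between libraries of equal replicate number, above 0.1 in only some pairs, and replicate numbers were therefore not used to pair libraries. Alternatives were DESeq2 1.42.0 size factors and its Wald test, upper quartile factors, limma-voom, other filters, the compared groups alone, a replicate block, removal of GC or length trends (loess, span 0.3), each library left out, and LPS 1 with LPS+TSLP 1 left out. Leaving out Vehicle 3 with LPS+TSLP 1 was added after seeing the data.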

Additional observations from a re-analysis of the deposited data

Results flagged for a closer look

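The genes of all lists, the list sums, the nearest profiles to Dbp and Arntl, both Arntl differences and the mitochondrial share were searched for a library far from the rest of LPS+TSLP, the only group of 4, by the gap to the nearest library over the group's range (above Dixon's 95% critical value for 4 libraries). Of 100 such measures 17 met this, where chance gives about 1 in 20. Among them, 12 were in LPS+TSLP replicate 1. Dbp at 58.34 CPM (gap over range 0.982), Nr1d1 at 125.2 CPM (0.977), Nr1d2 at 98.64 CPM (0.924), the rhythmic gene Usp2 at 25.08 CPM (0.895) and the sum of the 10 clock genes at 731.8 CPM (0.86) were the highest of the group. Arntl minus Dbp at −3.482 (0.857) and Arntl minus Nr1d1 at −4.582 (0.971), on the log2 CPM scale, were the lowest. Ces1f at 2.3 CPM (0.966), Alox15 at 3.26 CPM (0.918), Cyp1a1 at 14.1 CPM (0.896) and Hpcal4 at 5.18 CPM (0.936) were the highest, and Vnn1 at 9.08 CPM (0.874) the lowest. These 5 were chosen for their likeness to Dbp or Arntl, and the sums and differences use the same genes, so the 12 are not independent. That library also had the highest mitochondrial share (13.1%) and the lowest sum of neutrophil markers (119 CPM), whose part in these values was not tested. Unlike Dbp and Nr1d1, Usp2 did not split the Vehicle libraries, with 11.63, 11.58 and 11.03 CPM in Vehicle replicates 1 to 3.

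The other 5 were in other libraries. LPS+TSLP replicate 3 was the highest in Nfkbia at 551.7 CPM (0.833), in the sum of LPS response genes at 5069 CPM (0.909) and in Adipoq at 0.109 CPM (1.0), a gene at 0 in the rest of the group. LPS+TSLP replicate 4 was the highest in the sum of other clock transcription factors at 433.3 CPM (0.939), and LPS+TSLP replicate 2 the lowest in Plin1 at 0.0 CPM (0.852). Vehicle replicate 3, in a group of 3, could not be searched this way.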

How the results depend on the processing

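The number of clock genes called moved with the libraries left out, the test, the filter and the trends removed. In LPS against Vehicle, 3 members were called with all libraries, 5 by the DESeq2 Wald test, 1 with no filter on low counts, 1 with the GC trend removed, 1 with the length trend removed, 8 without Vehicle 3 and LPS+TSLP 1 together, and 0 to 5 on leaving out single libraries (1661 to 5424 genes, 4273 with all). No member was called in LPS+TSLP against LPS under any alternative listed here, with 35 genes called by the DESeq2 Wald test and 0 to 1 on leaving out single libraries. For LPS+TSLP against Vehicle, 1 member was called (2428 genes), 2 by the DESeq2 Wald test (3925 genes), 0 with the groups compared alone, 0 with the GC trend removed (1411 genes), 4 without LPS 1 and LPS+TSLP 1 together (3842 genes), 8 without Vehicle 3 and LPS+TSLP 1 together, and 0 to 5 on leaving out single libraries (516 to 3493 genes).

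With the replicate number as a block, 4493, 0 and 3454 genes were called in LPS against Vehicle, in LPS+TSLP against LPS, then in LPS+TSLP against Vehicle, with 3, 0 and 1 members. The block ended the call of Dbp in LPS against Vehicle (−3.83, adjusted p = 0.139) and of Btrc (−0.64, adjusted p = 0.0529) and added a call for Tef (−0.98, adjusted p = 0.0303), but the data do not show that the numbers pair the libraries. It turned round the log2 fold change in LPS+TSLP against LPS of Nr1d2 (−0.065), Arntl (−0.31), Rora (−0.015) and Clock (−0.12).

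Other changes of sign were in values that did not pass. Between LPS+TSLP and LPS, limma-voom turned round Nr1d2 (−0.069) and Arntl (−0.022), and removal of the GC trend Per1 (−0.001362). Without LPS 1 and LPS+TSLP 1 together, Cry2 was 0.004233, Nr1d1 −0.66, Nr1d2 −0.75 and Dbp −0.30. Without Vehicle 3 and LPS+TSLP 1 together, Nr1d1 was −0.45, Nr1d2 −0.82, Dbp −0.31 and Tsc22d3 −0.074. Leaving out single libraries gave Per1 −0.12 to 0.37, Cry2 −0.17 to 0.081, Nr1d1 −0.47 to 2.80, Nr1d2 −0.84 to 0.64, Dbp −0.32 to 2.89, Clock −0.11 to 0.40 and Tsc22d3 −0.15 to 0.34. In LPS against Vehicle it gave Per1 −0.037 to 0.34 and Arntl −0.22 to 0.99. Between LPS+TSLP and Vehicle it gave Per2 −0.37 to 0.060 and Arntl −0.024 to 1.18, and removal of the GC trend gave Per2 0.005258. The mean of Arntl minus Dbp ran from 0.90 to 3.37 in LPS+TSLP (1.66 with all libraries), 2.30 to 2.74 in LPS and −3.92 to 0.395 in Vehicle, and that of Arntl minus Nr1d1 from −0.332 to 1.84 in LPS+TSLP (0.232), 0.582 to 1.77 in LPS and −4.79 to −1.47 in Vehicle. The cause of these changes was not tested.

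With 3 or 4 libraries a group, and Dbp, Nr1d1 and Nr1d2 spread widely within 2 of the groups, the intervals of these genes leave differences of 1 log2 unit undetectable. The hour of sampling cannot be told apart from treatment or from library for any value here.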
